A study of Caenorhabditis elegans with 66 samples.

Results

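Chromosome IV of Caenorhabditis elegans carries nearly all piRNA genes of this nematode in a smaller and a larger cluster, and the values here describe the rest of that chromosome. Peak summits from chromatin immunoprecipitation with sequencing (ChIP-seq) were taken when they lay in the left arm (IV:1-4500000), between the clusters (IV:7000002-13500000) or at the right end (IV:17200002-17493829), on build WBcel235 and counted from 1. These 21614 summits were part of 257255 in all 33 immunoprecipitated (IP) libraries, of which 104268 lay in the clusters and 131250 on chromosomes I, II, III, V and X. The choice used position alone and no measured value. The left arm is 4.5 Mb long and holds 31 annotated piRNA genes, the stretch between the clusters is 6.5 Mb long and holds 304, and the right end is 0.294 Mb long and holds 175.

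SNAPc, the complex that activates small nuclear RNA genes, binds upstream of genes for spliceosomal snRNAs and other short RNAs and recruits RNA polymerase to them. In the germline of this worm its subunit SNPC-4 also binds the upstream elements of piRNA genes, whose short RNAs guide the Argonaute PRG-1 in silencing. The SNPC-1 proteins of this worm are related to one another and to the SNAPC1 subunit of other animals.

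Each group had 3 replicate libraries. FLAG-tagged SNPC-1.2 (snpc-1.2::3xflag) was measured in gravid adults at 72 h, alone and in a strain that also carried snpc-4::aid and Psun-1::tir1. AID is a degron that responds to auxin where the TIR1 receptor is present, the sun-1 promoter drives that receptor in the germline, and the labels do not state whether auxin was given. Tagged SNPC-4 (snpc-4::3xflag) was measured in L4 larvae at 48 h and in gravid adults at 72 h, with snpc-1.3(-) added at 48 h and snpc-1.2(-) added at 72 h. Tagged SNPC-1.1 (snpc-1.1::3xflag) was measured at 56 h in young adults. Each age of each set had untagged N2 worms of its own as controls. Material was whole worms, except for SNPC-1.1 and its N2, which were germline nuclei, so SNPC-1.1 differs from the other proteins in material, age and set at once. In whole worms, binding in fewer cells and weaker binding per cell cannot be told apart.

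The read depth behind the lists is unknown, and a list's length is not a depth. Lists held 14538 to 16732 summits in the 12 SNPC-4 libraries, 9926, 8397 and 4791 for SNPC-1.2, and 14912, 1504 and 10238 for SNPC-1.1. N2 lists held 2 to 4229. All 3 N2 lists of the SNPC-1.2 set held 16 summits or fewer, so a gene there could scarcely fail the N2 condition. Lists of the AID strain held 281, 81 and 67, so most genes could have no peak there whatever their own binding. One 56 h control, N2 replicate 2, has a description that mentions SNPC-1.2 rather than SNPC-1.1, while its title, genotype and library name give N2. Labels do not say whether replicates were separate cultures, so the spread between them may be technical.

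SNPC-4 and SNPC-1.2 both had summits in all 3 stretches of chromosome IV outside the clusters, at the highest density at its right end. A larger share of the SNPC-1.2 summits than of the SNPC-4 summits lay at that end. The 3 SNPC-1.2 libraries placed 792, 467 and 194 summits outside the clusters, the AID strain 40, 5 and 1, and their N2 0, 2 and 0. SNPC-4 placed 1322, 1234 and 1336 there at 48 h and 1329, 1237 and 1328 at 72 h. N2 of that set placed 290, 359 and 113 at 48 h and 283, 164 and 533 at 72 h. SNPC-1.1 placed 1543, 148 and 1057 outside the clusters, against 102, 109 and 3 for its N2. Every library of every intact tagged strain exceeded every library of its own N2. The right end makes up 2.60% of the length outside the clusters. It held 32.2 ± 3.26% (SD, n = 3) of the SNPC-1.2 summits outside the clusters, 8.43 ± 0.613% of the SNPC-4 summits at 48 h, 10.0 ± 0.245% at 72 h and 1.95 ± 0.178% of those of SNPC-1.1.

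To set lists of different length side by side, the density outside the clusters was divided by that on chromosomes I, II, III, V and X in the same library. This relative density was 2.50, 2.69 and 3.65 for SNPC-1.2. Only 1 library of the AID strain (3.62) and none of its N2 had the 20 summits required on the other chromosomes, so neither comparison of SNPC-1.2 could be tested. For SNPC-4 the mean was 1.22 ± 0.013 (SD, n = 3) at 48 h against 1.08 ± 0.002 in N2, and 1.18 ± 0.010 at 72 h against 1.09 ± 0.049. SNPC-4 libraries lay above every N2 library at both ages. Over both ages the difference was 0.113, with an exact two-sided permutation p = 0.005, the smallest that 400 labellings allow (Benjamini-Hochberg adjusted p = 0.0367 over 44 tests). The direction turned to -0.305 when only peaks with a fold of 3 or more were kept, and the difference shrank to 0.0284 with 1 summit per region and to 0.0290 with lists shortened to the same length. A fold of 3 or more was reached by 45.6% and 54.1% of the SNPC-4 summits outside the clusters at 48 h and 72 h, and by 3.30% and 15.2% of those of N2. By library, N2 at 48 h kept 4.83% of 290, 4.18% of 359 and 0.885% of 113 summits, so its filtered values rest on few summits. For SNPC-1.1 the relative density was 0.92, 0.91 and 0.93, below its N2 at 1.24, 0.94 and 0.96, with an exact permutation p = 0.1, the smallest for 3 against 3 libraries (adjusted p = 0.157). The difference turned to 0.239 with lists shortened to the same length, and the N2 value of 0.96 rests on 3 summits.

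**Figure D1:**
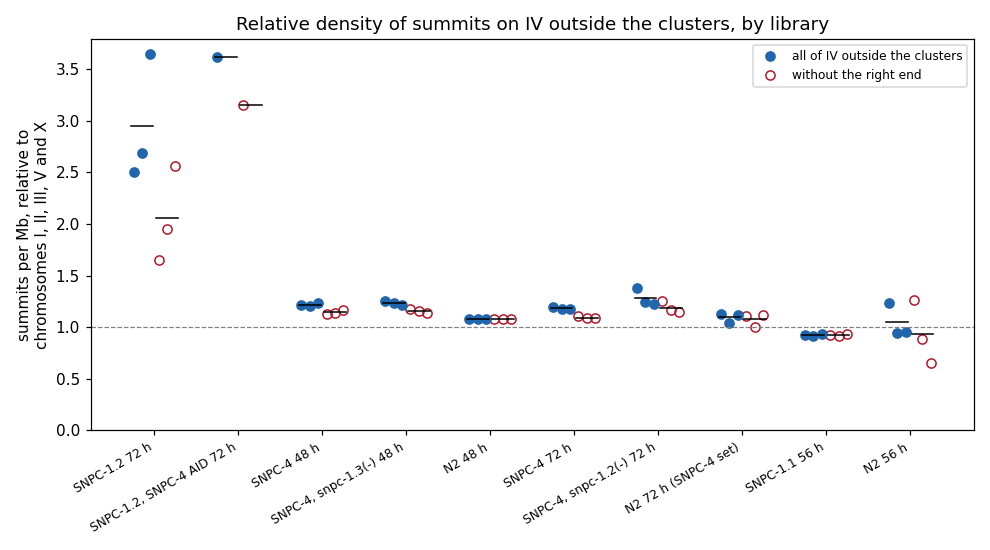
Summits per Mb on chromosome IV outside the clusters divided by summits per Mb on chromosomes I, II, III, V and X (y axis, no unit), for each library (points) with the group mean (line), with the right end (filled) and without it (open). SNPC-1.2 libraries sit at 2.50 to 3.65 and fall to 1.65 to 2.57 without the right end. SNPC-4 libraries of all strains sit between 1.17 and 1.25, apart from replicate 1 of snpc-1.2(-) at 1.38.

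The right end accounted for part of these densities. Without it the relative density of SNPC-1.2 was 2.06 ± 0.467 (SD, n = 3), that of SNPC-4 was 1.14 ± 0.018 at 48 h and 1.09 ± 0.011 at 72 h, and that of N2 was 1.08 ± 0.003 and 1.07 ± 0.065. The difference of SNPC-4 from N2 over both ages then fell to 0.0429 (exact permutation p = 0.05, adjusted p = 0.169). At 72 h the groups overlapped.

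Of the 4 cluster edges, the outer edge of the larger cluster had the highest densities of SNPC-1.2 or SNPC-4 summits on both sides. In the 50 kb inside that edge SNPC-4 reached 1307 ± 122 summits per Mb at 48 h and 1293 ± 94.5 at 72 h, and in the 50 kb outside it 1333 ± 94.5 and 1473 ± 75.7. SNPC-1.2 had 1133 ± 344 inside and 1260 ± 386 outside. N2 of the SNPC-4 set had 20.0 outside at 48 h and at 72 h, and SNPC-1.1 had 53.3 ± 50.3. The same 50 kb outside the edge holds 137 annotated piRNA genes, against 128 in the 50 kb inside. At the outer edge of the smaller cluster, where no piRNA gene lies within 50 kb on either side, SNPC-4 had 253 ± 30.6 summits per Mb outside at 48 h and 287 ± 50.3 at 72 h. N2 had 140 ± 80 at that place at 48 h and 253 ± 153 at 72 h, with a library of N2 reaching the lowest of SNPC-4 at each age, so the tagged and untagged groups were not separate there. At the inner edge of the smaller cluster SNPC-4 at 48 h fell from 613 ± 101 summits per Mb inside to 333 ± 11.5 outside, where N2 at 48 h had 33.3 ± 11.5 and SNPC-1.2 had 60 ± 20. At the inner edge of the larger cluster SNPC-4 at 72 h fell from 633 ± 61.1 to 207 ± 11.5, where N2 at 72 h had 20 ± 20, and SNPC-1.2 from 473 ± 301 to 133 ± 94.5.

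**Figure D2:**
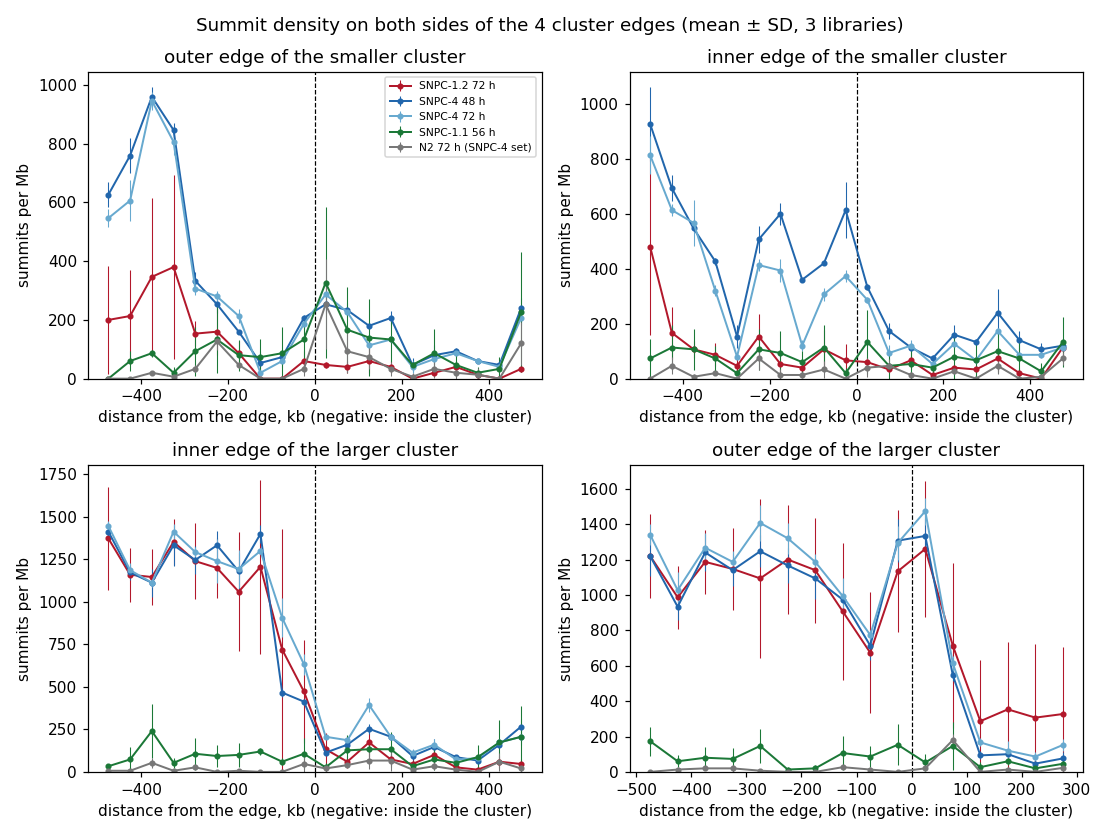
Summits per Mb (y axis) in 50-kb bins by distance from each of the 4 cluster edges in kb (x axis, negative inside the cluster), as the mean ± SD of 3 libraries. Just past the outer edge of the larger cluster SNPC-1.2 reaches 1260 summits per Mb and SNPC-4 reaches 1333 and 1473, while SNPC-1.1 has 53.3 and N2 has 20.0.

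Proximity to an edge followed the right end. The zone within 250 kb of an edge is 8.85% of the length outside the clusters. It held 39.9 ± 3.34% (SD, n = 3) of the SNPC-1.2 summits outside the clusters, 18.2 ± 0.699% and 19.5 ± 0.652% of those of SNPC-4 at 48 h and 72 h, and 12.4 ± 0.955% and 15.9 ± 1.34% of those of N2. The difference of SNPC-4 from N2 over both ages was 4.66 percentage points (exact permutation p = 0.005, adjusted p = 0.0367), with no overlap at either age. Without the right end it was -0.138 points (exact permutation p = 0.795), with 1 summit per region it was 0.562, and with lists shortened to the same length it turned to -0.785. SNPC-1.1 had 10.7 ± 0.572% near an edge, below the 2 N2 libraries with enough summits, at 17.6% and 18.3% (difference -7.32 points, exact permutation p = 0.1, adjusted p = 0.157). The median distance of a summit from an edge was 587 ± 129 kb for SNPC-1.2, 1484 ± 39.7 kb for SNPC-4 at 48 h and 1628 ± 50.5 kb for SNPC-1.1. For SNPC-4 at 72 h it was 1463 ± 8.46 kb, and for N2 of that set 1565 ± 24.7 kb at 48 h and 1557 ± 115 kb at 72 h. N2 at 56 h had 1474, 1547 and 78.6 kb, the last from 3 summits.

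Beyond the first 60 kb of the right end piRNA genes become sparse, 38 of them among the 175, and the SNPC-1.2 libraries diverged. They placed 188, 60 and 19 summits in that outer stretch, against 42, 38 and 34 for SNPC-4 at 48 h, 53, 44 and 53 at 72 h and 12, 9 and 11 for its N2. In the first 60 kb SNPC-1.2 placed 95, 77 and 42, and SNPC-4 placed 78, 65 and 71 at 48 h and 79, 83 and 77 at 72 h. The strongest SNPC-1.2 region outside the clusters by the authors' fold lay there, at IV:17219616-17251368, with summit folds of 25.0, 30.8 and 16.8 next to mfsd-8.1, which the annotation lists as protein-coding, among many piRNA genes. In the same 60 kb the AID strain had 1 summit in each library. In AID replicate 3 it was the only summit outside the clusters, with a fold of 3.52. It lay 49.9 kb from the edge, the same distance as the summit of the SNPC-1.2 region. N2 of the SNPC-4 set also had 1 summit in these 60 kb in each library at 48 h and 72 h. Other leading SNPC-1.2 regions included one at IV:17460353-17462725 with no gene within 200 bp (folds of 11.0, 11.5 and 10.2), one at C30H6.9 (11.7, 10.7 and 9.99) and one at F26D10.23 (9.21, 11.8 and 8.97). The F26D10.23 region was also called in all 3 N2 libraries at 48 h, at 72 h in the SNPC-4 set and at 56 h, with folds of 4.29, 3.93 and 2.39 at 48 h. The N2 lists of the SNPC-1.2 set, with at most 16 summits, did not show it.

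At piRNA genes outside the clusters SNPC-4 had peaks in all 3 segments, and nearly all genes with a SNPC-1.2 peak were at the right end. Of the genes with a SNPC-4 peak at 72 h, 92 of 122, 103 of 120 and 107 of 130 lay there too. For genes of up to 500 bp, a summit at most 200 bp away counted as a peak. Of the 510 piRNA genes, 30.3 ± 1.38% (SD, n = 3) had a SNPC-4 peak at 48 h and 24.3 ± 1.04% at 72 h, against 0.261 ± 0.226% and 0.654 ± 0.408% in N2. Over both ages the difference was 26.8 points (exact permutation p = 0.005, adjusted p = 0.0367). SNPC-1.2 had 24.3%, 24.5% and 15.5%, and both the AID strain and its N2 had 0 in every library (exact permutation p = 0.1 for each, the smallest possible). The short AID and N2 lists left little room for another value. SNPC-1.1 had 2.94%, 0.392% and 1.76%, and its N2 had 0. For comparison, 63.4% of the 14204 piRNA genes in the clusters had a SNPC-1.2 peak and 65.5% a SNPC-4 peak at 48 h, as group means, and of 649 piRNA genes on other chromosomes 1.75% and 4.47%. Over all 11 groups, 261 of the 510 genes had a peak in at least 1 library and 249 had none.

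By segment, the right end carried the SNPC-1.2 signal at piRNA genes. There 66.3%, 67.4% and 43.4% of 175 genes had a SNPC-1.2 peak, close to 56.6%, 49.1% and 49.7% for SNPC-4 at 48 h and 52.6%, 58.9% and 61.1% at 72 h. SNPC-1.1 had a peak at 0.571%, 0 and 0.571% of them. Between the clusters SNPC-1.2 had a peak at 1.64%, 1.32% and 0.658% of 304 genes. There SNPC-4 had 18.1%, 18.1% and 20.4% at 48 h, and 8.55%, 4.28% and 6.25% at 72 h, the age of SNPC-1.2. With peaks of fold 3 or more only, the means there were 0.877% for SNPC-1.2 and 2.08% for SNPC-4 at 72 h. On the left arm, with 31 genes, SNPC-4 had 22.6%, 19.4% and 19.4% at 48 h and 12.9% in each library at 72 h, and SNPC-1.2 had 9.68%, 9.68% and 3.23%. SNPC-1.2 and SNPC-4 come from different sets, and their difference was not tested. Neighbouring piRNA genes can share a summit. For example, 21ur-4966 at IV:17202418-17202438 has 7 other piRNA genes within 500 bp, and the same summit gave folds of 7.24, 6.21 and 4.72 for SNPC-1.2 and of 7.16, 7.65 and 7.08 for SNPC-4 at 48 h.

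**Figure D3:**
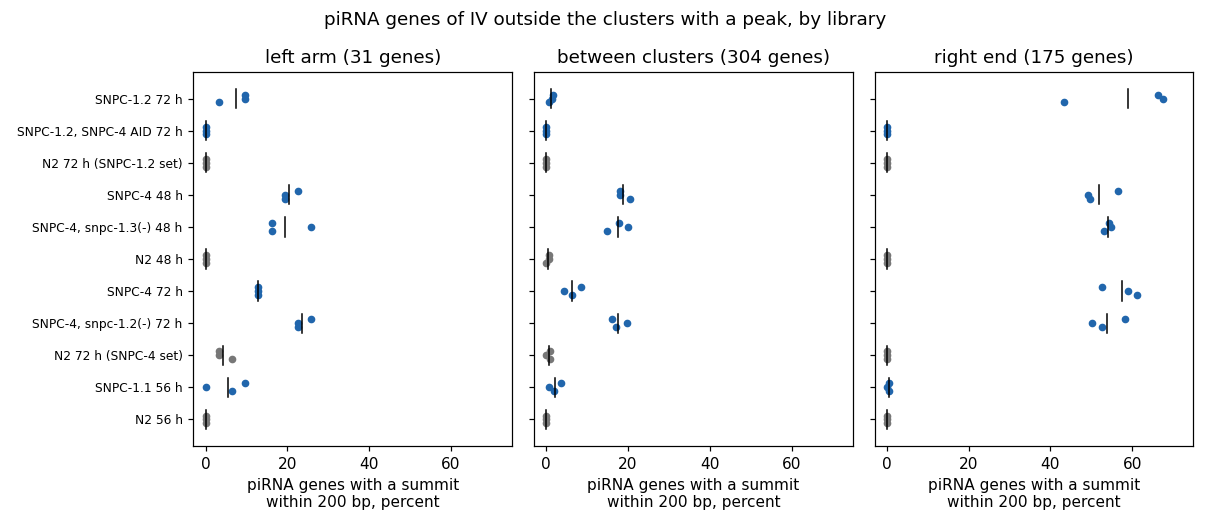
Percent of annotated piRNA genes with a summit within 200 bp (x axis) in each library (points) with the group mean (line), for the 31 genes of the left arm, the 304 between the clusters and the 175 of the right end. At the right end SNPC-1.2 and SNPC-4 libraries share a range of 43.4% to 67.4%, whereas between the clusters SNPC-1.2 stays at or below 1.64%. There SNPC-4 libraries lie at 18.1% to 20.4% at 48 h, 4.28% to 8.55% at 72 h and 16.1% to 19.7% in snpc-1.2(-) at 72 h. The differences by age and by snpc-1.2 did not pass the threshold.

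Between the clusters the share of piRNA genes with a SNPC-4 peak was lower in gravid adults than in L4 larvae, and higher in gravid adults without snpc-1.2. It was 18.1%, 18.1% and 20.4% at 48 h, 8.55%, 4.28% and 6.25% at 72 h, and 16.1%, 19.7% and 17.1% at 72 h in snpc-1.2(-). The groups did not overlap in either comparison, with differences of -12.5 and 11.3 points (exact permutation p = 0.1 for each, the smallest possible, adjusted p = 0.133 over 20 tests). Both comparisons use the same SNPC-4 libraries at 72 h, so they are not independent. At the right end the same values were 51.8 ± 4.13%, 57.5 ± 4.44% and 53.7 ± 4.12%, and all 3 groups overlapped. With peaks of fold 3 or more only, the shares between the clusters were 2.52% at 48 h, 2.08% at 72 h and 3.73% in snpc-1.2(-), as means of 3 libraries, so most of these peaks had folds under 3. Over all 510 genes the age difference was -5.95 points, and it turned to 1.05 points with that filter.

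Gene by gene, a gene was called when it had a peak in each of the 3 libraries on one side of a comparison and in 0 on the other side. Between the clusters 23 of 304 piRNA genes (7.57%) had a peak at 48 h and not at 72 h, beside 1.00% of all annotated genes, and 1 (0.329%) had the reverse, beside 1.43%. In the comparison with snpc-1.2(-) 17 (5.59%) gained a peak without snpc-1.2, beside 0.631% of all genes, and 0 lost one, beside 1.61%. Neighbouring genes at IV:9598773-9598988, 21ur-9918 and 21ur-9836, shared summits with folds of 2.20, 2.84 and 2.41 at 48 h and 2.14, 2.78 and 2.58 in snpc-1.2(-), and had none in the 3 libraries of SNPC-4 at 72 h. The genes 21ur-11554, 8.77 kb from the inner edge of the smaller cluster, and 21ur-6266, 282 kb from it, had a peak in all 3 libraries at 48 h and in snpc-1.2(-), and in none at 72 h. At the right end 0 genes had a peak only at 48 h, beside 1.00% of all genes, and 6 (3.43%) only at 72 h, beside 1.43%. Among these 6 was 21ur-14378, with folds of 5.18, 5.24 and 6.82 at 72 h. It also had a peak in all 3 snpc-1.3(-) libraries at 48 h, with folds of 4.65, 5.17 and 5.02. Loss of snpc-1.3 at 48 h left the share of all 510 genes at 30.2 ± 2.16% against 30.3 ± 1.38% (difference -0.0654 points, exact permutation p = 1). Its libraries ran from 28.0% to 32.4%, and those of SNPC-4 alone from 28.8% to 31.6%, so the groups overlapped.

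Away from piRNA genes, SNPC-4 and SNPC-1.1 had high folds at genes for snRNAs and other short RNAs. Of 22 snRNA genes, 15, 15 and 17 had a SNPC-4 peak at 48 h and 18 in each library at 72 h, and 17, 10 and 18 had a SNPC-1.1 peak. SNPC-1.2 had 9, 9 and 6, the AID strain 0 in each library, N2 at 48 h 5, 4 and 2, N2 at 72 h 3, 3 and 6 and N2 at 56 h 2, 2 and 0. The snRNA gene F38E11.10, at IV:9444642-9444763, had folds of 183, 174 and 192 for SNPC-4 at 48 h and 231, 182 and 274 at 72 h. SNPC-1.1 had 274, 16.7 and 193 there, and SNPC-1.2 had 10.1, 8.00 and 6.30. N2 peaks at the same gene had folds of 2.90 to 3.12 at 48 h and 3.07 to 5.40 at 72 h, so this gene is not among those with a peak in tagged libraries alone. The snRNA gene F07C6.5 had no N2 peak in any library and folds of 91.2, 78.6 and 92.8 for SNPC-4 at 48 h, 102, 82.3 and 105 at 72 h, and 66.7, 8.32 and 68.0 for SNPC-1.1. The SNPC-1.1 library with a short list, replicate 3, gave low folds at each of these genes. Copies of snRNA genes are nearly identical, and mapping may have split or moved their reads.

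Genes for trans-splicing and Y RNAs stood out in the same libraries. The spliced leader genes sls-2.10 and sls-2.11 make SL2, the leader joined to downstream genes of operons. They had a peak in all 12 SNPC-4 and all 3 SNPC-1.1 libraries and in no N2 library. At sls-2.11 the folds were 44.1, 41.2 and 45.8 for SNPC-4 at 48 h, 58.5, 45.5 and 58.5 at 72 h, and 45.9, 6.21 and 51.3 for SNPC-1.1. SNPC-1.2 had 5.03 and 3.97 in 2 libraries and no peak in the third. The SmY genes smy-1 and smy-2 make RNAs found with the trans-splicing machinery. The summit at smy-2 had folds of 121, 120 and 147 for SNPC-4 at 48 h, 183, 9.51 and 108 for SNPC-1.1, 4.92, 3.29 and 4.18 for SNPC-1.2 and 2.29, 2.27 and 1.93 for N2 at 48 h. The Y RNA gene yrn-1, transcribed by RNA polymerase III, had folds of 30.1, 30.7 and 36.7 for SNPC-4 at 48 h, 44.1, 34.5 and 46.1 at 72 h and 26.9, 3.58 and 24.2 for SNPC-1.1. It had no peak in any SNPC-1.2, AID or N2 library. The piRNA genes 21ur-3 and 21ur-5883 lie beside sls-2.10 and sls-2.11 and share those summits, so their peaks cannot be told apart from those of the SL2 genes.

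Other short RNA genes had many peaks in untagged worms too. Of 30 tRNA genes, 24, 26 and 25 had a SNPC-4 peak at 48 h and 27, 25 and 27 at 72 h, while N2 had 16, 18 and 8 at 48 h and 6, 4 and 11 at 72 h. SNPC-1.2 had 22, 16 and 8 and the AID strain 1, 0 and 0. The tRNA gene F08G5.t3 was the strongest called against N2 at 72 h, with folds of 44.5, 44.5 and 56.3. It had a peak in 2 of the 3 N2 libraries at 48 h, with folds of 1.52 and 1.76. Of 40 snoRNA genes, 16, 17 and 16 had a SNPC-4 peak at 48 h against 12, 14 and 4 in N2, so each SNPC-4 library lay above each N2 library. T26A8.6, annotated as a snoRNA gene, had SNPC-4 folds of 218, 172 and 239 at 48 h and N2 folds of 2.60, 3.41 and 2.72. Its folds of 218 and 239 were the highest outside the clusters in those SNPC-4 libraries. W03B1.17, annotated likewise, had folds of 105, 9.86 and 86.5 for SNPC-1.1 and was its only snoRNA gene called against N2. Of 31 miRNA genes, 5 had a SNPC-4 peak in each library at 48 h, among them mir-5550 (7.09, 6.52 and 8.48) and mir-53 (2.33, 2.62 and 2.55), and N2 had 4, 2 and 1.

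Taking all short RNA genes together, 13.5 ± 0.391% of SNPC-4 summits outside the clusters at 48 h and 11.2 ± 0.0347% at 72 h lay within 200 bp of one, against 13.2 ± 1.58% and 9.90 ± 2.13% in N2. The difference over both ages was 0.792 points (exact permutation p = 0.43, adjusted p = 0.526), and it turned to -3.35 points with 1 summit per region (adjusted p = 0.044, exact permutation) and to -2.98 points without the right end. With lists shortened to the same length it rose to 8.31 points, past the threshold (adjusted p = 0.035, exact permutation), so neither its size nor its direction held. The shares of single kinds of gene were not tested. piRNA genes took 8.38 ± 0.183% of SNPC-4 summits and 0.416 ± 0.366% of N2 summits at 48 h, and 5.85 ± 0.0787% and 1.05 ± 0.407% at 72 h. tRNA genes took 1.88 ± 0.127% and 5.99 ± 1.04% at 48 h, but 1.95 ± 0.00979% and 2.21 ± 0.202% at 72 h. The share at all short RNA genes was 23.8 ± 6.62% for SNPC-1.2, 14.3 ± 0.962% for SNPC-4 in snpc-1.2(-) and 9.94 ± 6.66% for SNPC-1.1. In snpc-1.2(-) every library lay above every SNPC-4 library at 72 h (difference 3.10 points, exact permutation p = 0.1, adjusted p = 0.157).

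**Figure D4:**
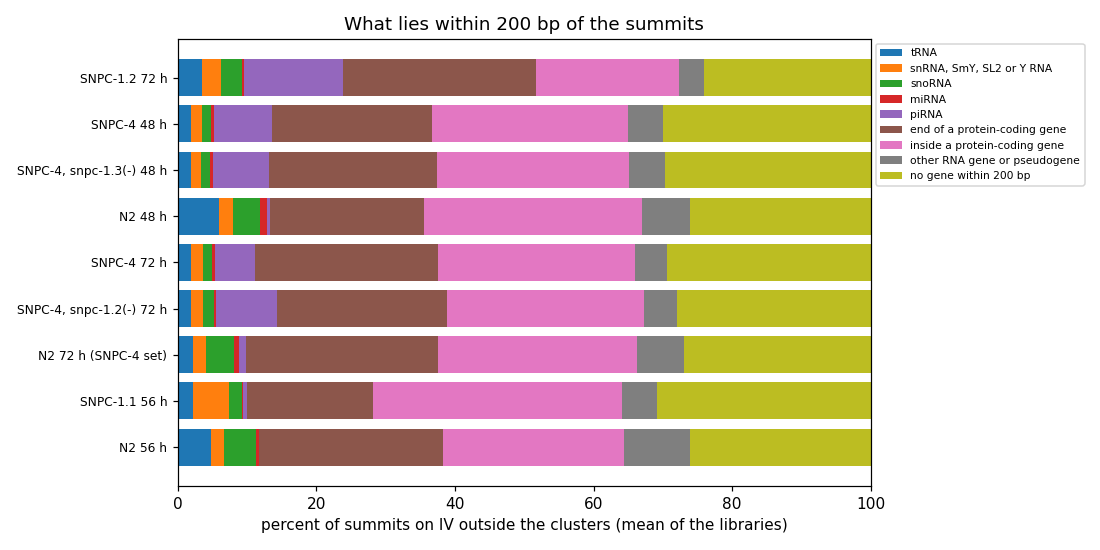
Percent of the summits on chromosome IV outside the clusters (x axis, mean of the libraries with at least 20 such summits) by what lies within 200 bp, for 9 groups. piRNA genes take 14.3% of SNPC-1.2 summits, 8.38% of SNPC-4 summits at 48 h and 5.85% at 72 h, and about 1% or less in SNPC-1.1 and N2.

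Most summits outside the clusters were at protein-coding genes or at no annotated gene. At 48 h 23.1% of SNPC-4 summits lay at the end of a protein-coding gene, 28.3% inside one and 30.0% had no gene within 200 bp, and N2 had 22.3%, 31.4% and 26.1%. SNPC-1.2 had 27.9%, 20.7% and 24.1%, and SNPC-1.1 had 18.3%, 36.0% and 30.9%. For genes longer than 500 bp the summit had to be at most 200 bp from the start or the end of the gene. Of 2339 protein-coding genes, 16.0 ± 0.933% had a SNPC-4 peak at 48 h and 17.8 ± 0.977% at 72 h, against 3.26 ± 2.01% and 4.86 ± 2.83% in N2. Over both ages the difference was 12.8 points (exact permutation p = 0.005, adjusted p = 0.0367), and with lists shortened to the same number of peaks it turned to -0.948 points. Over all 4 pairs of tagged and N2 groups the difference was 10.6 points (exact permutation p = 3.75e-05, adjusted p = 0.000825), with a tagged mean above the N2 mean in 4 of 4 pairs, and it turned to -0.460 points with shortened lists. Shortening left 2 summits per list in the SNPC-1.2 pair and 28 in the SNPC-1.1 pair, so these could add next to nothing to that value. At full length the N2 lists of the SNPC-1.2 pair held 16 summits or fewer, so the direction of that pair was all but fixed in advance. This limits both the pooled p and the 4 of 4 pairs. The SNPC-1.1 pair alone gave an exact permutation p = 0.3 (adjusted p = 0.4). For piRNA genes the difference over the same pairs was 19.2 points (exact permutation p = 1.25e-05, the smallest that 160000 labellings allow, adjusted p = 0.00055). It kept its direction and stayed past the threshold under each alternative tried, though with shortened lists it could rest on little but the SNPC-4 pairs. The short N2 lists of the SNPC-1.2 pair limit the pooled p for piRNA genes as well.

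Among lists of protein-coding genes the ribosomal protein genes held the highest share for SNPC-1.2. Of 12, SNPC-1.2 had a peak at 10, 6 and 2, SNPC-4 at 5, 3 and 4 at 48 h and at 9, 7 and 8 at 72 h, and N2 at 3, 3 and 2 at 48 h and 3, 2 and 4 at 72 h. The ages of SNPC-4 did not overlap, but SNPC-4 in snpc-1.3(-) at 48 h had a peak at 9, 5 and 7, which overlaps both. The ribosomal protein gene rpl-12, at IV:13239587-13240651, had folds of 7.01, 6.54 and 8.05 for SNPC-1.2, 2.47 in 1 library of the AID strain and 3.13, 3.19 and 2.81 in N2 at 48 h. Of 22 histone genes, 11, 10 and 13 had a SNPC-4 peak at 48 h, 7, 6 and 3 a SNPC-1.2 peak and 5, 6 and 3 an N2 peak at 48 h. Collagen genes (35, cuticle) had a SNPC-4 peak at 4, 4 and 5 at 48 h. The 9 major sperm protein genes outside the clusters had a peak in no library of any group.

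**Figure D5:**
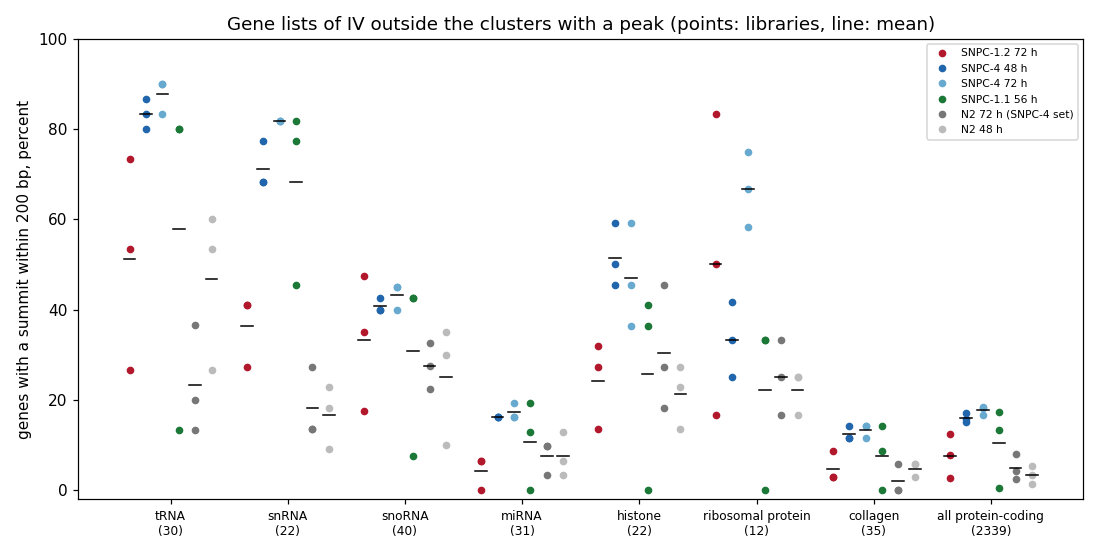
Percent of the genes of 8 lists outside the clusters with a summit within 200 bp (y axis), for each library (points) of 6 groups with the group mean (line), and the number of genes under each name. SNPC-4 lies above its N2, whose lists are shorter, at 48 h and 72 h without overlap for tRNA, snRNA, snoRNA, miRNA, collagen and all protein-coding genes. N2 libraries reach the SNPC-4 range for histone genes at 72 h and for ribosomal protein genes at 48 h.

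Counts of all genes called outside the clusters were read against the same rule over the 46926 annotated genes, which include the 14204 piRNA genes of the clusters. SNPC-1.2 gained 136 of 3953 genes against N2, or 3.44%, beside 12.3% of all genes. Of these, 49 were piRNA genes, 47 of them at the right end, and 49 were protein-coding. The AID strain lost 120 genes, or 3.04%, beside 11.9%, including 49 piRNA genes and 6 snRNA genes. Its lists of 281, 81 and 67 summits left few genes that could keep a peak, so this count does not single out these genes. SNPC-4 gained 397 genes at 48 h (10.0%, beside 22.7% of all genes) and 352 at 72 h (8.90%, beside 22.9%), of which 120 and 80 were piRNA genes and 190 and 177 protein-coding. SNPC-1.1 gained 28 (0.708%, beside 0.778%), of which 8 were snRNA genes and 1 was a piRNA gene. That piRNA gene, 21ur-5883, shares its summit with the SL2 gene sls-2.11. Without replicate 3 SNPC-1.1 gained 384. Leaving out SNPC-1.2 replicate 3 gave 344 genes for SNPC-1.2 and 319 lost in the AID strain. Loss of snpc-1.3 gained 4 and lost 2 genes (0.101% and 0.0506%), beside 0.275% and 0.175% of all genes. Loss of snpc-1.2 gained 25, of which 22 were piRNA genes, and lost 23, of which 15 were protein-coding (0.632% and 0.582%), beside 0.631% and 1.61%. From 48 h to 72 h 43 genes were gained, of which 30 were protein-coding, and 47 lost, of which 26 were piRNA genes (1.09% and 1.19%), beside 1.43% and 1.00%. Leaving out a library loosens the rule. The genes lost without snpc-1.2 numbered 44 without SNPC-4 72 h replicate 2, and 38 and 35 without snpc-1.2(-) replicates 2 and 3, and those gained numbered 39 without snpc-1.2(-) replicate 1. The genes gained with age numbered 68 without SNPC-4 48 h replicate 1 and 66 without SNPC-4 72 h replicate 2, and those lost numbered 72 without SNPC-4 48 h replicate 2. For snpc-1.3(-) the counts ran from 5 to 13 gained and from 4 to 11 lost, depending on the library left out. With peaks of fold 3 or more the genes lost with age numbered 3, and those gained without snpc-1.2 numbered 6.

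The genes with the highest folds in those comparisons were few. The snRNA gene K09B11.15 had a peak in all 3 SNPC-4 libraries at 72 h, with folds of 12.2, 10.9 and 14.2, and in none at 48 h. The kinase gene ark-1 had folds of 7.48, 5.69 and 2.35 at 72 h and no peak at 48 h or in snpc-1.2(-). In the AID comparison the genes lost with the highest folds were F38E11.10, the heat-shock protein gene hsp-12.3 beside it, which shares its summit, and C49C3.6 on the right end (9.81, 7.96 and 6.40 in SNPC-1.2). The genes mfsd-8.1 and C30H6.9 had higher SNPC-1.2 folds (means of 24.2 and 10.8) and were not lost. Each thus had a peak in at least 1 AID library. Among protein-coding genes called for SNPC-4 and not N2 at 48 h, otpl-1 (18.1, 17.4 and 19.6) and gipc-2 (14.8, 16.6 and 15.7) had the highest ranks. At 72 h C30H6.9 of the right end, also a leading SNPC-1.2 gene, had folds of 12.8, 12.5 and 14.4.

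Merged regions were also counted without regard to genes. Outside the clusters 121 of 584 regions (20.7%) were called in all 3 SNPC-1.2 and no N2 library, beside 18.3% over the genome. For SNPC-4 it was 543 of 1232 (44.1%) at 48 h, beside 47.0%, and 474 of 1146 (41.4%) at 72 h, beside 45.6%. For SNPC-1.1 it was 65 of 1372 (4.74%), beside 5.80%. All of these shares lay near their background. Of the 65 SNPC-1.1 regions 76.9% overlapped one called for SNPC-4 at 48 h and 83.1% one called at 72 h, which are 9.21% and 11.6% of the SNPC-4 regions. Of the 121 SNPC-1.2 regions 43.8% overlapped one of SNPC-4 at 48 h and 22.3% one at 72 h, or 10.3% and 6.12% of the SNPC-4 regions. N2 libraries had regions of their own outside the clusters, 70 at 48 h and 107 at 72 h in all 3 libraries, and 70 and 106 of these were also in all 3 SNPC-4 libraries. One lay at rpl-7A at IV:4390409-4390857, with N2 folds of 3.99, 4.14 and 2.58. Among the 100 summits of highest fold in a list, 13 to 16 lay outside the clusters for SNPC-4, 14 to 17 for SNPC-1.1, 12 to 19 for N2 and 1 to 3 for SNPC-1.2.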

How the data were processed

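ChIP-seq peak lists of 33 IP libraries in 11 groups of 3 were used. Per the submitters' processing notes MACS2 2.1.2 and deepTools were used on genome build WBcel235, and the aligner is not given in the sources used here. The fold in the deposited lists is the enrichment at the summit as the authors' peak caller wrote it, and was used only to describe, rank or filter peaks. The −log10 p and −log10 q values are as the authors deposited them, and the lowest −log10 q in any list is 1.30, so weaker peaks are not in the lists. Lists give no read counts, so no counting interval can be given.

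Summit positions were compared with RefSeq gene positions of the same build, which carried no strand here. Regions overlapping by 1 bp or more were merged. A share needed at least 20 summits, and 5 measures per library were compared with exact two-sided permutation tests of group means, within age or set for pooled tests, with Benjamini-Hochberg adjustment over 44 tests. The threshold was an adjusted p of 0.05. Scripts ran in Python 3.11.15 with numpy 2.4.6 and pandas 2.3.3 and were tested on simulated data. Named genes and regions had the highest mean rank by fold (or highest fold, between strains and ages) within a list, up to 3 or 5 each. Members, gene lists and rules were chosen with earlier results of these data known. Alternatives were a fold minimum of 3, 1 summit per region, lists shortened to the shortest compared, a 500 bp gene window, the replicate number as a block and leaving out each library. Omitting the right end and splitting piRNA genes by segment were chosen after seeing the data.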

Additional observations from a re-analysis of the deposited data

Results flagged for a closer look

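SNPC-1.1 at 56 h and SNPC-4 at 72 h lay on opposite sides of their own N2 in every library for 2 measures. The difference between the effects was -0.215 for the relative density, where the effect was -0.126 for SNPC-1.1 and 0.0887 for SNPC-4 (exact permutation p = 0.145, adjusted p = 0.29 over 10 tests). For the percent of summits within 250 kb of an edge it was -10.9 points (exact permutation p = 0.01, adjusted p = 0.075). Neither passed the threshold, and the strains differ in material, age and set as well as in the tagged protein.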

How the results depend on the processing

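Of 772 alternative values for 55 results, 658 kept the direction and the side of the threshold, or a count within 1.5 times. The tagged against N2 difference at piRNA genes over 4 pairs did so under every alternative run. With shortened lists it could rest on little but the SNPC-4 pairs. Where values moved, the cause was not tested, apart from what an alternative removes by construction.

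With a fold of 3 or more, SNPC-4 minus N2 in relative density was -0.325 at 48 h, -0.285 at 72 h and -0.305 over both ages and over the pairs. The age difference was 0.00117 in relative density, -1.03 points near an edge and 1.05 points at piRNA genes, and snpc-1.3(-) gave -0.242 points at protein-coding genes. Counts were 89 genes for SNPC-1.2, 1 and 0 gained and lost in snpc-1.3(-), 6 gained in snpc-1.2(-) and 3 lost with age.

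With 1 summit per region, relative density differences were -0.00806 at 72 h, 0.0284 over both ages and -0.0509 over the pairs. Near an edge they were -0.534 at 72 h, 0.562 over both ages, -1.41 over the pairs, -0.128 for snpc-1.3(-) and -0.182 with age. At short RNA genes SNPC-4 gave -3.72, -2.98 and -3.35 at 48 h, at 72 h and over both ages.

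With shortened lists, relative density differences were -0.163 at 48 h, 0.0290 over both ages, -0.00274 for snpc-1.3(-) and 0.239 for SNPC-1.1. Near an edge SNPC-4 gave -1.40, -0.169 and -0.785, also -0.785 over the pairs, where only the SNPC-4 pairs kept enough summits for a share. At short RNA genes SNPC-4 gave 8.31 over both ages and, for the same reason, over the pairs. At protein-coding genes it gave -1.15, -0.741 and -0.948, with -0.460 over the pairs.

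The 500 bp window gave 0.244 over the pairs at short RNA genes, and counts of 324 for SNPC-1.2, 267 lost in the AID strain, 714 at 48 h and 608 at 72 h for SNPC-4, 2 gained in snpc-1.3(-), 39 gained in snpc-1.2(-) and 51 for SNPC-1.1. Without the right end SNPC-4 gave 0.0429 in relative density over both ages, and -1.39 at 72 h, -0.138 over both ages and -1.65 over the pairs near an edge, with -0.0510 for snpc-1.3(-). It gave -3.26, -2.70 and -2.98 at short RNA genes and 12.5 at protein-coding genes. Right-end piRNA genes alone gave 2.29, -3.81 and 5.71 for snpc-1.3(-), snpc-1.2(-) and age, and those between the clusters at fold 3 gave 0.110 for snpc-1.3(-).

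Replicate numbers were not taken to pair the libraries, since none of the 6 comparisons checked had 3 pairs that all correlated over 0.1. The 2 comparisons of the SNPC-1.2 set were not checked, since the AID and N2 lists there hold under 500 summits. With the replicate block the differences over both ages kept their sizes of 0.113, 4.66, 12.8 and 26.8 in relative density, near an edge, at protein-coding and at piRNA genes, but missed the threshold, and the short RNA share over the pairs was 0.414. Counts under the replicate block, which takes genes that differ one way in 2 or more same-numbered pairs and the other way in none, were 382 for SNPC-1.2, 370 for AID, 611 and 590 for SNPC-4, 33 and 29 for snpc-1.3(-), 68 and 88 for snpc-1.2(-), 120 and 114 with age, and 398 for SNPC-1.1.

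Leaving out 1 library gave ranges of -1.14 to 1.01 at piRNA genes and -0.165 to 0.604 near an edge for snpc-1.3(-), and -0.383 to 1.57 near an edge for snpc-1.2(-). Short RNA shares ranged from -1.35 to 0.792 over the pairs, -0.624 to 0.745 for SNPC-4 at 48 h and -5.63 to 0.533 for SNPC-1.1. Relative density over both ages ranged from 0.0994 to 0.122 and missed the threshold without SNPC-4 72 h replicate 1. The edge share over the pairs ranged from 0.422 to 4.66. Genes ranged from 136 to 344 for SNPC-1.2, 120 to 319 for AID, 5 to 13 and 4 to 11 for snpc-1.3(-), 26 to 39 and 26 to 44 for snpc-1.2(-), 47 to 68 and 49 to 72 with age and 28 to 384 for SNPC-1.1. Depth is unknown, so a missing peak may reflect sensitivity of the list.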
